A study of Homo sapiens with 17 samples.

Results

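The liver X receptor (LXR) genes and the genes of sterol efflux that LXRs control were followed in Ishikawa cells, a human line derived from an endometrial adenocarcinoma that stands in for the endometrial epithelium. The 10 members were chosen by gene symbol among 60662 genes of the count table, with earlier results of these data known. They are the receptors NR1H2 and NR1H3, their partner RXRA, the transporters ABCA1, ABCG1 and ABCA7, the sterol acceptor APOE, and the LXR targets MYLIP, LPCAT3 and SMPDL3A. RNA-seq counts were used for 3 control cultures in basal medium, 3 vehicle control cultures, 3 cultures treated with progesterone (P4) and 2 cultures labelled with the vehicle Nap only, all after 24 h. All were grown in medium with charcoal-stripped serum.

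The vehicle control is labelled with Nap and ethanol, whereas the labels of the P4 treated cultures name Nap and P4. Whether the P4 treated cultures held ethanol is not stated in their labels. The study's methods give the vehicle as 70% ethanol and a figure legend gives a lower percentage, and these were not reconciled here. In the comparison of these groups, P4 and ethanol therefore cannot be told apart. Nap is not defined in the labels. The sample protocol lists P4 at 0.1 and 1.0 mg/ml, while the study's text gives the P4 of the RNA-seq cultures as a lower concentration in μg/ml. This difference was not resolved here, and no dose is assigned to the P4 treated cultures. Another 6 libraries, from columns named PSAT1 and PSAT1_P4, carry titles that contradict those names. They were left in no group and entered no test. The value of each library is given for them, in places beside the range of the control cultures. The P4, vehicle and Nap comparisons share cultures, so they are not independent of each other.

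Total counts per library ranged from 10786880 to 19704493 in the 11 grouped cultures, except for vehicle control replicate 1 with 4999521. All 6 epithelial markers reached a mean of 1 CPM (the count scaled to the library's total, by the TMM method) in each group, with a summed level between 1159 and 1591 CPM. None of 8 macrophage markers did, and their sum was at most 2.01 CPM. The summed level of 7 stromal markers was 127 to 179 CPM in P4 treated cultures, against 343 to 359 in vehicle control and 418 to 622 in control cultures. Among these stromal markers, the largest fall in CPM from vehicle control to P4 was that of COL1A2, from a mean of 267 to 84.5 (log2 fold change -1.67). THY1 fell more on the log2 scale (-2.05), from a mean of 1.04 to 0.233 CPM. COL1A1 had 29.95 and 22.63 CPM, and COL3A1, at 52 and 48, was not called. The epithelial sum was also lowest with P4, at 1159 to 1302 CPM against 1507 to 1531 in vehicle control. Its markers were split, as KRT8, KRT18, KRT19 and PAX8 were called lower, CDH1 was called higher and EPCAM was not called. From vehicle control to P4, the mean of KRT8 went from 398.5 to 247.7 CPM and that of CDH1 from 264.1 to 314.5. PAX8 went from 349.4 to 220.2 CPM, but had 224.3 in control. These lower stromal and epithelial sums accompanied every P4 result below, and their part in them was not tested. All cultures were of the Ishikawa line. Apart from the collagen genes, the stromal markers DCN, PDGFRB, LUM and THY1 had means of 0.0268, 0.0246, 0.338 and 1.04 CPM in vehicle control. In such bulk RNA, fewer cells of a type and less RNA per cell cannot be told apart.

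LXRs are nuclear receptors that sit on DNA with a retinoid X receptor (RXR) and switch on their targets when they bind oxysterols, the oxidised products of cholesterol. LXR-alpha is encoded by NR1H3 and LXR-beta by NR1H2. Their best known targets move cholesterol out of the cell, through ABCA1 to lipid-poor apolipoproteins and through ABCG1 to high-density lipoprotein, and limit its uptake through MYLIP, a ubiquitin ligase. In the endometrium, P4 turns the epithelium to its secretory state.

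The DNA element bound by the LXR and RXR pair is a DR4, in which the hexamer AGGTCA is repeated in the same direction after a spacer of 4 bases. It is shown for ABCA1 because that gene had the second largest rise of the members and is the only member with a close match in the promoter windows searched. The stretch below is read 5′ to 3′ on the strand of the gene from RefSeq (GRCh38.p14, minus strand, chr9:104928202-104928231), with the match in capitals.
ABCA1: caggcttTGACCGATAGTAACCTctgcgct
ABCA1 match, other strand: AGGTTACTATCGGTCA
The match lies 53 to 69 bases before the RefSeq start of ABCA1, at chr9:104928209-104928224. It also lies 13 bases inside the start that GENCODE 29 gives the gene, within the 5′ UTR of 1 of 3 annotated transcripts. It differs from the DR4 at 2 of the 12 repeat bases. Windows from 250 bases before to 50 after each start were searched on both strands, and 822 of 35116 (2.34%) held a match with at most 2 mismatches. Of the members, 8 had a window, 14 windows in all, and a match was found in 1 member. ABCG1 and SMPDL3A had no window in the table. A match describes these letters only, and the lack of one in a window of this length says nothing of binding elsewhere.

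Against the vehicle control, P4 treated cultures had higher levels of ABCG1, ABCA1, MYLIP, SMPDL3A, NR1H2 and APOE, and lower levels of RXRA, ABCA7 and LPCAT3. Only NR1H3 did not pass the test. The 6 members called higher and 3 called lower of 10 compare with 26.6% and 26.5% of all 16540 genes tested, at an adjusted p under 0.05 by edgeR's quasi-likelihood test. Levels did not overlap between the groups for 9 members, against 60.3% of all genes. The median log2 fold change of the members was 0.65, against -0.01 over all genes, and the median of its absolute value was 0.75 against 0.38. As the members were chosen with earlier results of these data known, the shares and medians here and below are description only.

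Of the members, the transporters ABCG1 and ABCA1 moved most. ABCG1, on chromosome 21 from 42199689 to 42297244, had 4, 5 and 2 counts in the vehicle control cultures and 208, 360 and 313 in the P4 treated cultures. On the CPM scale the P4 treated cultures had 20.0, 30.9 and 23.9, and the vehicle controls 0.766, 0.368 and 0.161. The control cultures had 0.484, 1.04 and 0.594 CPM and the Nap only cultures 0.393 and 0.738. Every P4 treated culture was thus far above all 8 others. The log2 fold change against vehicle was 6.08 (SE 0.31, n = 3 per group, edgeR adjusted p = 2.66e-08), the 4th largest in size of all genes tested. As the vehicle counts were so few, the summed counts of 881 and 11 gave a ratio of 71.1 with a 95% exact interval of 39.5 to 143, which covers counting error only.

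ABCA1, on the minus strand of chromosome 9 from 104781002 to 104928237, had 14.5, 29.3 and 22.1 CPM in the P4 treated cultures. The vehicle controls had 0.957, 1.10 and 0.804 CPM, the controls 1.94, 2.54 and 1.34, and the Nap only cultures 2.91 and 3.35. The 3 vehicle control cultures were the lowest of all 11, and the P4 treated cultures the highest. The log2 fold change of ABCA1 against vehicle was 4.49 (SE 0.32, edgeR adjusted p = 6.02e-07), the 20th largest in size. It was 3.44 (SE 0.27, adjusted p = 2.36e-07) against control and 2.78 (SE 0.29, adjusted p = 2.08e-05) against Nap only. The size of the ABCA1 rise thus depended on the reference, since its level differed between the references.

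**Figure D1:**
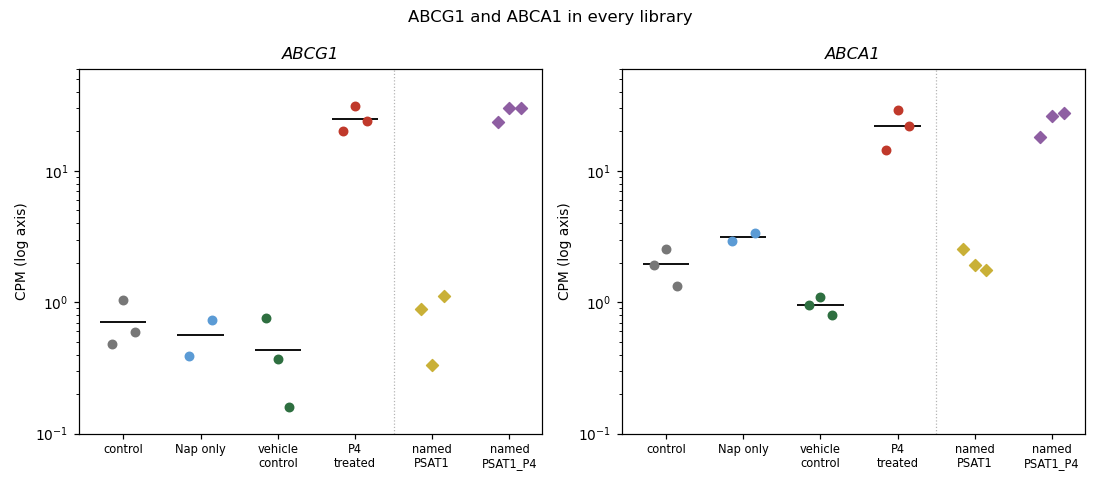
CPM of ABCG1 and ABCA1 on a log axis, with 1 point per library and a bar at the mean of each of the 4 groups. Diamonds right of the dotted line are the 6 libraries of no group. The P4 treated cultures lie between 20.0 and 30.9 CPM for ABCG1 and between 14.5 and 29.3 CPM for ABCA1, above every control, Nap only and vehicle control culture.

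ABCA7 moves phospholipids and takes part in phagocytosis, and is related to ABCA1 in sequence. It lies on chromosome 19 from 1040101 to 1065572. The P4 treated cultures had 21.3, 17.0 and 18.8 CPM and the vehicle controls 30.8, 28.7 and 27.2, a log2 fold change of -0.61 (SE 0.11, edgeR adjusted p = 4.64e-04). The control cultures, however, had 16.9, 20.1 and 13.7 CPM and the Nap only cultures 15.5 and 18.3. The vehicle control cultures stood apart as high, and the P4 treated cultures overlapped with control and Nap only. Against these the log2 fold changes of ABCA7 were 0.14 (SE 0.14, adjusted p = 0.429) and 0.14 (SE 0.14, adjusted p = 0.446). ABCA7 was thus called lower with P4 against 1 of the 3 references, the one in which its own level was high.

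Of the receptors, NR1H2 was higher and NR1H3 was not called. NR1H2, on chromosome 19 from 50329653 to 50382982, had 28.4, 36.3 and 32.2 CPM in P4 treated cultures and 20.1, 21.0 and 16.2 in vehicle controls. The controls had 17.4, 18.9 and 15.7 CPM and the Nap only cultures 15.6 and 19.6. All 8 cultures without P4 lay below all 3 with it. The log2 fold change of NR1H2 against vehicle was 0.76 (SE 0.12, edgeR adjusted p = 2.60e-04), and it was 0.87 and 0.84 against control and Nap only, both called.

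NR1H3 lies on chromosome 11 from 47248300 to 47269032. It had 6.24, 6.01 and 6.63 CPM with P4, 5.36, 7.29 and 7.08 with vehicle, 7.96, 7.74 and 8.02 in controls and 8.33 and 7.78 with Nap only. The P4 treated and vehicle control ranges overlapped, while the P4 treated cultures were below all control and Nap only cultures. Its log2 fold change was -0.12 against vehicle (95% interval -0.43 to 0.20, adjusted p = 0.556), -0.35 against control (adjusted p = 0.07) and -0.38 against Nap only (adjusted p = 0.0807), with edgeR. With upper-quartile scaling the last 2 passed, at adjusted p = 0.0367 and 0.0429. Exons of NR1H3 share 4.17% of their bases with ACP2 on the opposite strand.

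Per length of the exons, NR1H2 was more abundant than NR1H3 in every library. The ratio of NR1H2 to NR1H3 in RPKM was 5.50, 7.30 and 5.87 in the P4 treated cultures, 4.53, 3.48 and 2.76 in vehicle controls, 2.64, 2.94 and 2.37 in controls, and 2.27 and 3.05 with Nap only. The mean ratio was 6.22 ± 0.949 with P4 and 3.59 ± 0.890 with vehicle (SD, n = 3 each). The groups did not overlap, but an exact two-sided permutation test of 3 against 3 cultures gave p = 0.1, the smallest it allows.

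**Figure D2:**
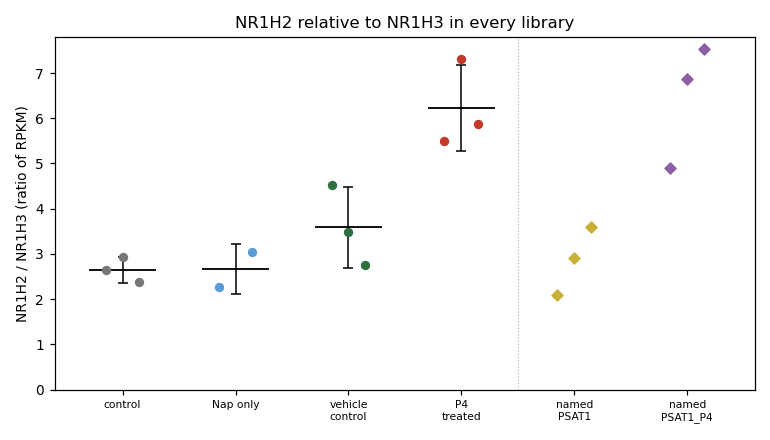
Ratio of NR1H2 to NR1H3 in RPKM (CPM per kilobase of exon) in every library, with the mean and SD of the 4 groups and diamonds for the 6 libraries of no group. The P4 treated cultures lie at 5.50 to 7.30, above the 2.27 to 4.53 of the other 8 grouped cultures.

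RXRA encodes the shared partner of LXRs and other nuclear receptors and lies on chromosome 9 from 134317098 to 134440585. It had 19.9, 20.5 and 22.0 CPM with P4, 37.7, 34.3 and 32.9 with vehicle, 30.3, 27.4 and 24.2 in controls and 26.2 and 27.6 with Nap only. The P4 treated cultures were the lowest and the vehicle controls the highest. RXRA had a log2 fold change of -0.75 against vehicle (SE 0.09, edgeR adjusted p = 2.92e-05) and -0.42 against control (SE 0.11, adjusted p = 0.00485). Of the receptor genes, NR1H2 thus rose, RXRA fell and NR1H3 did not pass the test against vehicle.

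Other LXR targets among the members were split. MYLIP, on chromosome 6 from 16129125 to 16148248, had 38.5, 49.0 and 37.8 CPM with P4 and 19.1, 20.3 and 16.7 with vehicle. In controls it had 16.5, 14.9 and 16.6 CPM, and 16.7 and 18.0 with Nap only. The 8 cultures without P4 lay close together and below the others. MYLIP thus had a log2 fold change of 1.15 against vehicle (SE 0.12, edgeR adjusted p = 9.50e-06).

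SMPDL3A, a phosphodiesterase on chromosome 6 from 122789049 to 122809720, had 8.45, 7.73 and 7.39 CPM with P4 and 2.87, 3.61 and 4.50 with vehicle. The controls had 5.11, 5.35 and 6.02 CPM and the Nap only cultures 5.66 and 4.76. The P4 treated cultures were above all others, and the vehicle controls below all others. The log2 fold change of SMPDL3A was 1.03 (SE 0.18, edgeR adjusted p = 4.60e-04) against vehicle and 0.50 (SE 0.17, adjusted p = 0.0177) against control. The latter was lost without control replicate 1, at 0.44 with adjusted p = 0.0639.

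APOE accepts cholesterol outside the cell and lies on chromosome 19 from 44905754 to 44909393. It had 9.70, 8.58 and 8.99 CPM with P4, 6.12, 6.33 and 5.95 with vehicle, 5.33, 6.96 and 5.94 in controls and 4.32 and 4.63 with Nap only. The P4 treated cultures were the highest, by a log2 fold change of 0.55 against vehicle (SE 0.14, edgeR adjusted p = 0.00593). LPCAT3, which puts polyunsaturated chains into phospholipids, was the LXR target that fell. It had 24.0, 22.3 and 21.8 CPM with P4 and 33.5, 31.3 and 30.9 with vehicle, a log2 fold change of -0.50 (SE 0.09, adjusted p = 5.91e-04). The controls at 32.9, 33.7 and 31.2 CPM and the Nap only cultures at 32.5 and 32.1 lay with the vehicle controls. LPCAT3 lies on the minus strand of chromosome 12 from 6976186 to 7018510, and 65.6% of its exon bases are shared with EMG1 on the opposite strand. The strand setting of the counting is not given in the sources used here, so the LPCAT3 counts are uncertain. EMG1 itself had a log2 fold change of 0.21 (adjusted p = 0.0595).

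**Figure D3:**
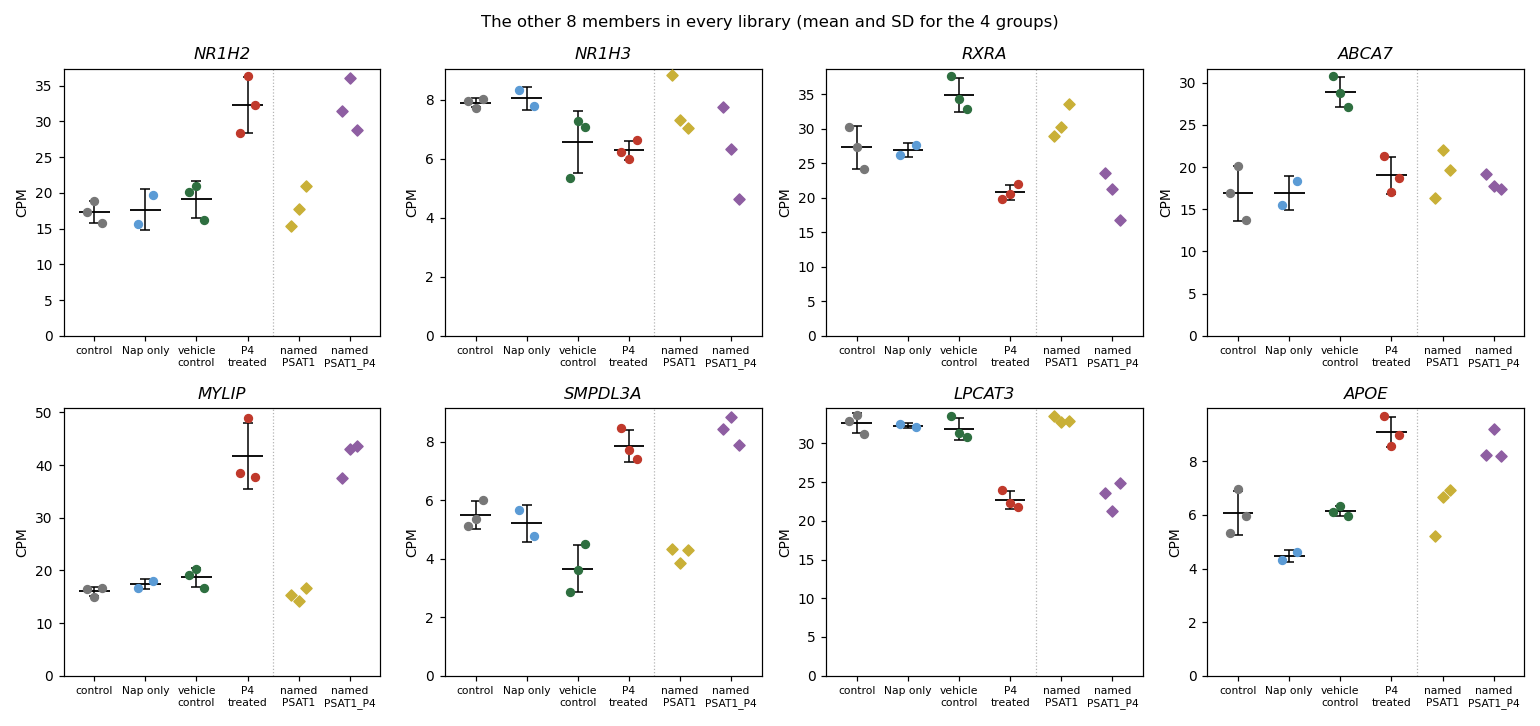
CPM of the other 8 members in every library, each on an axis from 0, with the mean and SD of the 4 groups and diamonds for the 6 libraries of no group. NR1H2, MYLIP, SMPDL3A and APOE are highest and RXRA and LPCAT3 lowest in the P4 treated cultures, and ABCA7 is highest in the vehicle control cultures at 27.2 to 30.8 CPM.

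Per length, MYLIP was the most abundant member in the P4 treated cultures, with 13.8 ± 2.07 RPKM (SD, n = 3), followed by NR1H2 at 8.61 ± 1.05. LPCAT3 at 4.81 ± 0.245, APOE at 4.15 ± 0.258 and ABCG1 at 4.07 ± 0.905 came next, and the last 2 lay within 1 SD of each other. SMPDL3A had 3.35 ± 0.231 and ABCA7 2.27 ± 0.260 RPKM. ABCA1 at 1.94 ± 0.651 varied more between cultures, and its spread took in ABCA7, RXRA at 1.88 ± 0.0957 and NR1H3 at 1.39 ± 0.0694. In vehicle controls the order of RPKM was LPCAT3 (6.75), MYLIP (6.17), NR1H2 (5.09), ABCA7 (3.46), RXRA (3.16), APOE (2.80), SMPDL3A (1.56), NR1H3 (1.45), ABCA1 (0.0842) and ABCG1 (0.0705). ABCA1 and ABCG1 (SD 0.0133 and 0.0502) lay within their spread there, on few counts, and both were far below the other 8 members. With P4, ABCG1 was at the level of APOE. The order depends on the length used, since with the median transcript length ABCA1 (17.8 RPKM) was above ABCG1 (8.31 RPKM) in the P4 treated cultures, and NR1H2 at 36.2 RPKM was the most abundant.

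The same members were compared with the other references. Against control, 6 members were called higher and 2 lower (RXRA and LPCAT3) of 10, beside 26.8% and 28.0% of 16620 genes, and 9 did not overlap, beside 61.1%. Against Nap only, 6 were again called higher and RXRA and LPCAT3 lower, beside 24.8% and 24.9% of 16987 genes, and 9 did not overlap, beside 68.1%. The 6 higher were ABCG1, ABCA1, MYLIP, SMPDL3A, NR1H2 and APOE each time. ABCG1 rose by 5.08 against control and 5.38 against Nap only on the log2 scale, MYLIP by 1.36 and 1.23, and APOE by 0.56 and 0.99. LPCAT3 fell by 0.55 and 0.54 on the log2 scale. Against Nap only, the 0.57 of SMPDL3A (edgeR adjusted p = 0.0241) was lost with DESeq2 (adjusted p = 0.066), without Nap only replicate 1 (0.0546) or 2 (0.169) and without P4 treated replicate 3 (0.0548). The -0.40 of RXRA (adjusted p = 0.0116) was lost without Nap only replicate 2 (-0.35, adjusted p = 0.106).

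**Figure D4:**
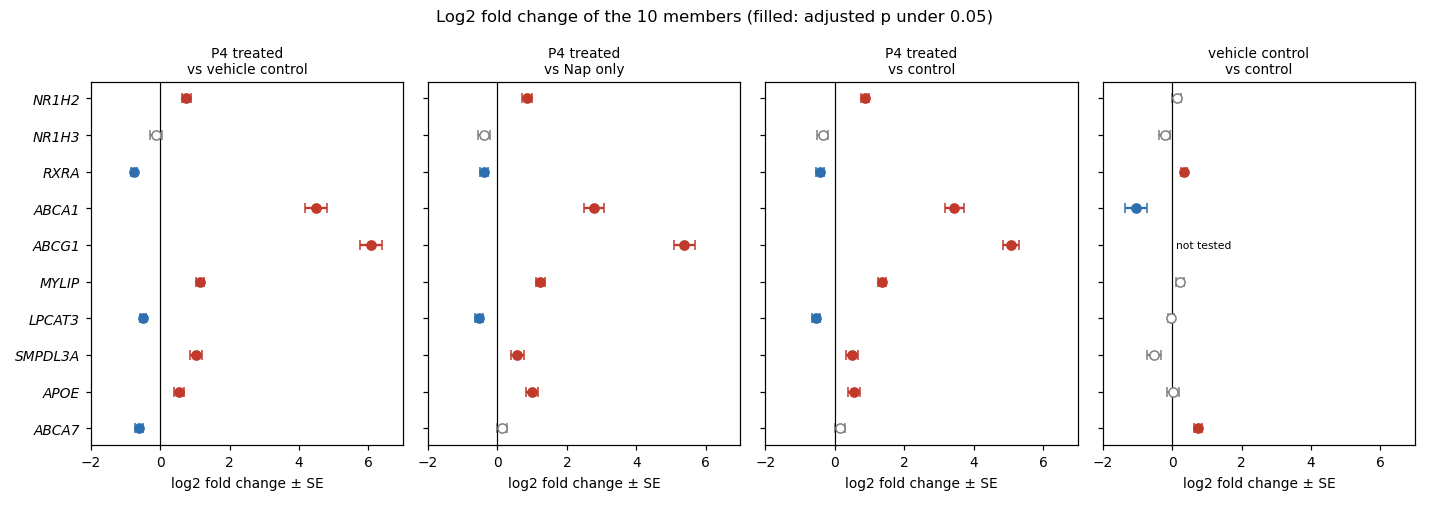
Log2 fold change with its SE for the 10 members in 4 comparisons, filled where the edgeR adjusted p is under 0.05 (red higher, blue lower). ABCG1 and ABCA1 lie between 2.78 and 6.08 in the 3 P4 comparisons, while the largest value in size between vehicle control and control is the -1.04 of ABCA1.

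The vehicle itself was compared with the control medium. ABCA7 (log2 fold change 0.75, SE 0.12, edgeR adjusted p = 1.49e-04) and RXRA (0.34, SE 0.10, adjusted p = 0.0168) were higher in the vehicle control, and ABCA1 was lower (-1.04, SE 0.32, adjusted p = 0.0228). These 2 higher and 1 lower of 9 members tested compare with 11.9% and 10.7% of 16673 genes, and the 6 that did not overlap with 38.9%. ABCG1 was too low to be tested. SMPDL3A had -0.52 (adjusted p = 0.0518). Only the ABCA7 call held in every alternative. ABCA1 rested on 5 to 15 counts per vehicle control culture and was not called in a fit of all 4 groups (adjusted p = 0.071), nor without control replicate 2 (0.0904) or vehicle control replicate 1 (0.0533), 2 (0.0509) or 3 (0.123), and DESeq2 gave it no adjusted p. RXRA was not called without control replicate 3 (0.065) or vehicle control replicate 1 (0.0694) or 2 (0.0567).

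Between Nap only and control cultures no member was called, as 0% of 17166 genes passed with edgeR, and 1 gene passed with DESeq2. At an unadjusted p under 0.05 edgeR gave 217 genes, 2 of them members, namely ABCA1 (log2 fold change 0.67, SE 0.27) and APOE (-0.43, SE 0.20). Levels of 3 members did not overlap, beside 12.2% of all genes. The 2 comparisons with Nap only rest on 2 cultures of that group, fewer than the others.

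The other genes of the pathway were described by lists, which were also chosen with earlier results known, so their shares are likewise description only. Of 20 other LXR targets, 13 could be tested for P4 treated against vehicle control cultures, and 8 were higher and 4 lower, beside 26.6% and 26.5% of all genes, with a median log2 fold change of 0.52. TTC39B, which promotes the degradation of LXR, rose from 43.6 ± 0.661 to 121 ± 3.55 CPM (SD, n = 3 each; log2 fold change 1.45, edgeR adjusted p = 1.41e-08). SCD, the desaturase that makes monounsaturated fatty acids, rose from 611 ± 33.6 to 1064 ± 132 CPM (log2 fold change 0.79). MERTK, a receptor for the uptake of dead cells, rose from 10.5 ± 1.25 to 21.3 ± 2.68 CPM (1.02), and SREBF1, the activator of fatty acid synthesis, from 67.0 ± 4.72 to 96.1 ± 8.07 CPM (0.52). The rise of SREBF1 was smaller against control (0.26, edgeR adjusted p = 0.0222) and Nap only (0.25, adjusted p = 0.0473). SREBF1 was also lower in vehicle control than in control (-0.24, adjusted p = 0.0243). PNPLA3 fell from 14.6 ± 0.530 to 8.37 ± 0.770 CPM (-0.82). FASN, the fatty acid synthase, fell from 491 ± 22.4 to 308 ± 21.3 CPM (-0.69), while controls had 352 ± 34.8 CPM. FASN was not called with P4 against control (-0.21, adjusted p = 0.0729) or Nap only (-0.15, adjusted p = 0.196), and was higher in vehicle control than in control (0.48, adjusted p = 1.89e-04). Against control, 8 of 13 LXR targets tested were higher and 3 lower (26.8% and 28.0% of all genes), and against Nap only 7 of 14 were higher and 5 lower (24.8% and 24.9% of all genes).

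Of 15 partners and co-regulators, 14 were tested, and 8 were higher and 2 lower, against the same 26.6% and 26.5% of all genes. The co-activators NCOA3 (log2 fold change 0.86) and NCOA1 (0.62) and the deacetylase SIRT1 (0.91) had the smallest adjusted p among those higher. RXRB, another RXR, rose from 26.3 ± 1.77 to 37.1 ± 1.59 CPM (0.47, adjusted p = 7.56e-04), opposite to RXRA. The histone deacetylase HDAC3 (-0.41) was among those that fell, from 47.8 ± 0.410 to 36.3 ± 1.85 CPM.

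Of 12 enzymes that make, modify or break down oxysterols and their precursors, 7 were tested for P4 treated against vehicle control cultures. Of these, none was higher and 4 were lower, where 26.6% and 26.5% of all genes were. Among them were EBP (log2 fold change -0.83) and DHCR7 (-0.32), both of late cholesterol synthesis, and CYP39A1 (-1.23), an oxysterol hydroxylase. EBP fell from 32.0 ± 1.00 to 18.2 ± 1.31 CPM. Against control, 1 of 7 tested was higher and 4 were lower (26.8% and 28.0% of all genes). Against Nap only, none of 8 was higher and 4 were lower (24.8% and 24.9% of all genes). The enzyme higher against control was CYP46A1 (0.81, edgeR adjusted p = 0.0339). CYP46A1 was not called against vehicle control (0.38, adjusted p = 0.347) or Nap only (0.70, adjusted p = 0.122). CH25H, the hydroxylase that makes an oxysterol ligand, had 0 or 1 counts in each control, vehicle control and P4 treated culture and was not tested.

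Of 14 genes of sterol storage and acceptors, 9 were tested, and 2 were higher and 3 lower, shares near the 26.6% and 26.5% of all genes. NCEH1 (log2 fold change -0.80) and LIPA (-0.33), which hydrolyse cholesteryl esters, and SOAT1 (-0.62), which makes them, fell together. CAV1 (0.58) and GRAMD1A (0.33) were higher, but fewer of the list were called higher without vehicle control replicate 2 (1), vehicle control replicate 3 (0) or P4 treated replicate 3 (1), and with upper-quartile scaling (1). CAV1 was not called against control (0.23, adjusted p = 0.436) or Nap only (0.68, adjusted p = 0.0641).

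Among 14 other transporters of the ABCA and ABCG families, 9 were tested, and 3 were higher and 3 lower, also near the shares of all genes (26.6% and 26.5%). ABCA12, a lipid transporter of the skin barrier, rose from 0.355 ± 0.103 to 2.87 ± 0.826 CPM (log2 fold change 2.99, adjusted p = 4.26e-05), on 2 to 6 counts per vehicle control culture. ABCA5 (0.60) and ABCA3 (0.37) were also higher. ABCA2 (-0.55), ABCA4 (-1.32) and ABCG5 (-2.58) were lower. ABCA2 was not called against control (-0.03, adjusted p = 0.841) or Nap only (0.07, adjusted p = 0.671), and was higher in vehicle control than in control (0.53, adjusted p = 1.63e-04). ABCG5, itself an LXR target, had 0 to 3 counts per culture with P4 and 5 to 12 with vehicle. ABCG4, the close relative of ABCG1, had 4.65 ± 1.32 CPM with P4 and 3.29 ± 1.30 with vehicle and was not called (0.62, adjusted p = 0.0746). ABCG4 was, however, called higher with P4 against control (1.39, adjusted p = 1.45e-04) and Nap only (1.31, adjusted p = 0.00335), and higher in vehicle control than in control (0.78, adjusted p = 0.0383), by edgeR.

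SREBP2 raises cholesterol synthesis and uptake when sterol is low, and its targets were listed beside those of LXR. All 13 were tested, and 5 were higher and 6 lower, beside 26.6% and 26.5% of all genes, with a median log2 fold change of 0.03. STARD4, a sterol carrier, rose from 150 ± 9.28 to 198 ± 18.1 CPM (0.39, edgeR adjusted p = 0.0011), and SREBF2, which encodes SREBP2 itself, was also higher (0.27). LSS (-0.94), IDI1 (-0.47) and HMGCS1 (-0.46), enzymes of synthesis, were lower. Higher and lower calls in this list were thus near equal in number.

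**Figure D5:**
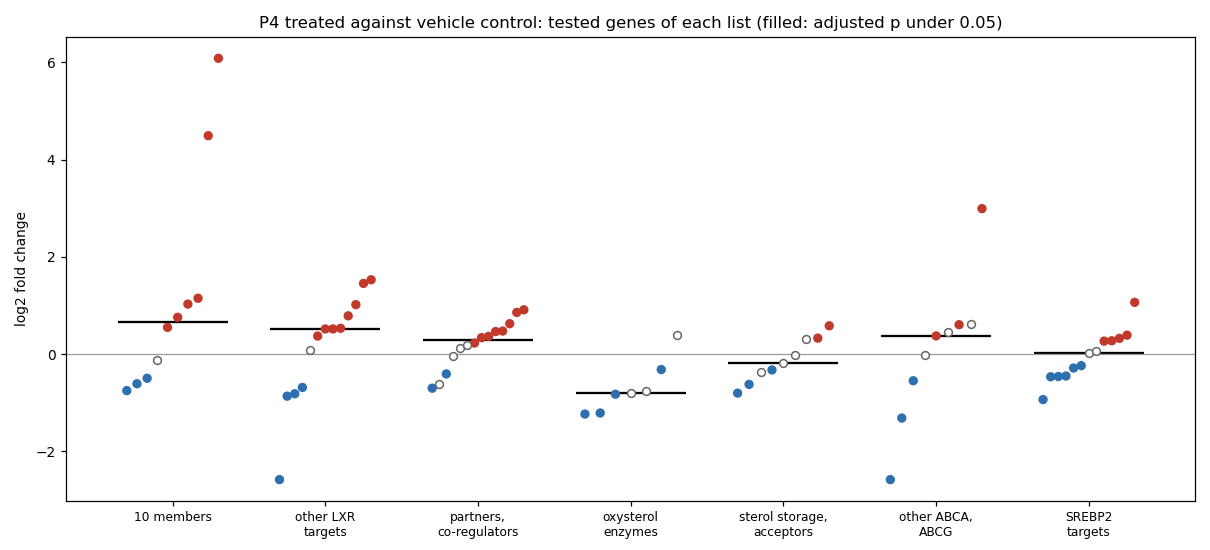
Log2 fold change between P4 treated and vehicle control cultures of each tested gene in the 7 lists, ordered by value within a list, filled where the edgeR adjusted p is under 0.05, with a bar at the list's median. ABCG1 (6.08) and ABCA1 (4.49) are the points above 4, and the median is highest for the 10 members (0.65) and lowest for the oxysterol enzymes (-0.80).

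The genes whose levels followed ABCG1 most closely over the 11 grouped cultures, by Pearson's r of log2(CPM + 1) among 15655 genes, were HES6 (r = 0.996), ARG2 (0.996), CD55 (0.996), STK3 (0.995) and CLGN (0.995). For ABCA1 they were GOLGA5 (0.986), BEX2 (0.986), SARS (0.985), RIOK3 (0.984) and ZFPL1 (0.983). The 11 points share their groups and libraries, and r is given as a description only.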

How the data were processed

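Ishikawa cell RNA-seq covered 11 cultures in 4 groups taken from the labels, and 6 further libraries with contradictory labels entered no test. The authors trimmed 75 bp single-end reads with cutadapt, applied a quality filter, mapped what was left with Subread and deposited raw counts per gene from featureCounts with GENCODE release 31. Aligner versions and the strand setting are not given in the sources used here. The number of columns not used was 0.

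From these counts, edgeR 4.0.16 (R 4.3.3) was run with TMM, filterByExpr (minimum count 10), robust quasi-likelihood fits of the groups compared and Benjamini-Hochberg adjustment over all genes tested, with a call at an adjusted p under 0.05. CPM and RPKM used TMM factors over all 17 libraries, and exon lengths and positions from GENCODE 29 on GRCh38. The pathway lists and the members were chosen with earlier results of these data known. The text names all members, in each other list the 3 tested genes of smallest adjusted p in each direction between P4 treated and vehicle control cultures, SREBF1, RXRB, CH25H and ABCG4, and the 5 genes most like ABCG1 and ABCA1 among genes whose mean CPM was 1 or more. Some results under this rule are not reported here. CYP39A1, CYP46A1, EMG1, ACP2 and the single marker genes were named after their values were seen. RefSeq promoter windows came from a table of GRCh38.p14.

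Alternatives were DESeq2 1.42.0, RLE and upper-quartile scaling, a test without a filter, a minimum of 10 counts in each library, a joint fit of all 4 groups, a block for the replicate number, leaving out single replicates, and the median transcript length for RPKM. Tables and plots were made with Python 3.11.15, scipy 1.17.1 and matplotlib 3.10.9. On simulated counts for P4 treated and vehicle control cultures, 170 of 200 changed genes were recovered and 12 unchanged ones called among 16473 genes. Replicate libraries differed by more than sampling noise (chi-square per degree of freedom 1.54 to 20.6), so none was counted as a duplicate. The labels number biological replicates without saying how the cultures were separated, so p-values measure the spread between these samples.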

Additional observations from a re-analysis of the deposited data

Results flagged for a closer look

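The 6 libraries that the labels put in no group entered no test. In the 3 whose columns are named PSAT1_P4, some members lay above the highest control culture in all 3. The values were 23.5, 30.2 and 29.9 CPM for ABCG1, 18.2, 26.1 and 27.6 for ABCA1, 37.5, 43.1 and 43.6 for MYLIP, and 31.4, 36.1 and 28.8 for NR1H2. They were 8.44, 8.83 and 7.89 CPM for SMPDL3A and 8.25, 9.20 and 8.20 for APOE. In the same 3 libraries RXRA, at 23.6, 21.3 and 16.7 CPM, was below the lowest control culture at 24.2. LPCAT3, at 23.6, 21.3 and 24.9 CPM, was below the lowest control culture at 31.2. In the 3 libraries named PSAT1, ABCG1 had 0.892, 0.333 and 1.12 CPM and ABCA1 2.55, 1.93 and 1.77. No member was above the highest control culture in all 3. SMPDL3A, at 4.33, 3.87 and 4.30 CPM, was below the lowest control culture at 5.11 in all 3. For these libraries the share of all genes outside the control range was not computed, so the values are description only. Between the grouped P4 treated and control cultures, levels of 61.1% of all genes did not overlap. What the 6 libraries received was not taken from their values.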

How the results depend on the processing

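Depth limits ABCG1 and ABCA1 without P4, where counts per vehicle control culture were 2 to 5 and 5 to 15, and vehicle control replicate 1 had the fewest reads. The interval of the ABCG1 count ratio covers counting error only. In P4 treated against vehicle control, all 128 refitted log2 fold changes of members kept their direction and their side of the threshold. With a minimum of 10 counts in each library ABCG1 and ABCA1 were not tested. The numbers of members called in the P4 comparisons stayed within 1.5 times under each alternative, and in vehicle control against control the number ranged from 1 to 3 on leaving out a replicate, with 1 without vehicle control replicate 1 or 2.

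Same-numbered replicates did not deviate together (r of 0.0384, 0.0512 and -0.0429 in P4 treated and vehicle control cultures), so the numbers were not taken as pairs, although r was 0.307 and 0.351 for the 2 pairs of Nap only and control cultures. With the replicate number as a block, 9 members were called in P4 treated against vehicle control, as without it. SMPDL3A (0.615, adjusted p = 0.0686) and RXRA (-0.436, adjusted p = 0.0511) were not called against Nap only, and SMPDL3A (-0.564, adjusted p = 0.0268) was called in vehicle control against control. In Nap only against control, the block raised the genes called from 0 to 42, none a member.

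Sign changes were confined to values that were never called, and their cause was not tested. In vehicle control against control, APOE (0.0132 with the settings of the report) was -0.00991 with no filter and -0.00276 with the block, and -0.08 to 0.129 on leaving out a replicate. In Nap only against control, NR1H2 was -0.0328 with the block, LPCAT3 0.00803 with upper-quartile scaling, and ABCA7 0.0022 with DESeq2 and 0.0153 with upper-quartile scaling. There, leaving out a replicate gave -0.151 to 0.185 for NR1H2, -0.015 to 0.0774 for NR1H3, -0.0967 to 0.0624 for RXRA, -0.854 to 0.048 for ABCG1, -0.0391 to 0.0184 for LPCAT3, -0.192 to 0.0502 for SMPDL3A and -0.134 to 0.148 for ABCA7.

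Genes called over the whole table differed by over 1.5 times in vehicle control against control (3763, and 2038 or 1908 without vehicle control replicate 2 or 3) and in P4 treated against Nap only (8446, and 5606 or 5502 without Nap only replicate 1 or 2). Upper-quartile scaling moved the median of all genes from -0.01 to -0.10 in P4 treated against vehicle control, and no called member changed direction.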
